A study of Mus musculus with 6 samples.

Results

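The genes followed here were 7 CXC chemokine genes: Cxcl1, Cxcl2, Cxcl3 and Cxcl5, whose products attract neutrophils, Ppbp and Pf4, the platelet chemokine genes, and Cxcl16, a membrane-bound chemokine. They were taken by gene symbol from a table of 55335 genes, in which each of the 7 symbols has a single row. The libraries are poly(A) RNA from mouse bone marrow-derived macrophages, which are primary cells grown from marrow in 20 ng/mL of macrophage colony-stimulating factor. All 6 cultures received PAC-CM on day 5, which is medium conditioned by injured pancreatic acinar cells. The PAC-CM group (n = 3) had this medium alone, and the kinsenoside group (n = 3) had it together with 400 µM kinsenoside, a plant glycoside. The labels give no strain, sex or age, and nothing in them ties a replicate to its own animal or culture. A p-value therefore sets the group difference against the spread among these 6 libraries, which may be technical in origin. No library came from macrophages without PAC-CM, so levels are those under the medium and the comparison is that of kinsenoside.

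CXC chemokines are small secreted proteins that guide leukocytes. Those with a glutamate-leucine-arginine motif ahead of the first cysteines act on the receptors CXCR1 and CXCR2 of neutrophils, and macrophages make them when Toll-like or interleukin-1 receptors activate NF-kB. In acute pancreatitis such chemokines draw neutrophils into the injured gland. Ppbp encodes the precursor of platelet basic protein, which platelet proteases trim to a CXCR2 ligand, and Pf4 encodes platelet factor 4, which binds heparin-like chains and lacks the motif. Both proteins are stored in platelet alpha granules, and monocytes and macrophages can express the genes as well. Cxcl16 encodes a transmembrane chemokine that also takes up oxidized lipoprotein, is cut from the surface by ADAM10 and ADAM17, and is the ligand of CXCR6.

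Of the 7 genes, 6 lie in a single cluster on chromosome 5, all on the plus strand, over 147 kb (GRCm38, GENCODE M21). In order these are Cxcl5 (ENSMUSG00000029371, chr5:90759360-90761624), Ppbp (ENSMUSG00000029372, chr5:90768518-90770063), Pf4 (ENSMUSG00000029373, chr5:90772435-90773383), Cxcl3 (ENSMUSG00000029379, chr5:90786103-90789600), Cxcl1 (ENSMUSG00000029380, chr5:90891241-90893115) and Cxcl2 (ENSMUSG00000058427, chr5:90903871-90905938). Cxcl16 (ENSMUSG00000018920, chr11:70453983-70459984, minus strand) lies apart from them. No annotated gene overlaps any of the 6, whereas Cxcl16 overlaps Zmynd15 on the other strand. Zmynd15 had 886 to 1617 counts per library against 21333 to 27105 for Cxcl16, and because the use of strand in counting is not stated, reads of the overlapping stretch cannot be told apart.

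The stretches just before the transcription start are shown for the members whose promoter is in the RefSeq table (GRCm38.p6, 5 of the 7), because 3 of them hold the same sequence of the kind that NF-kB binds, and Ppbp and Pf4 do not. Each is read 5′ to 3′ on the plus strand and ends before the earlier of the RefSeq and GENCODE starts. Capitals mark the kappaB sequence GGGAATTTCC, which is the first 10 bases of the longest run shared by the Cxcl1, Cxcl2 and Cxcl3 stretches (11 bases), and the TATA-type sequence ATAAAA.
Cxcl1 (chr5:90891125-90891240): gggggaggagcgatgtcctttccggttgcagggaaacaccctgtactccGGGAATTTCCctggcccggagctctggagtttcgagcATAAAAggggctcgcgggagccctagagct
Cxcl2 (chr5:90903779-90903870): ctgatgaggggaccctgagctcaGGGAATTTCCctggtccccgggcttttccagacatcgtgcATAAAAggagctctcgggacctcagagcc
Cxcl3 (chr5:90785981-90786100): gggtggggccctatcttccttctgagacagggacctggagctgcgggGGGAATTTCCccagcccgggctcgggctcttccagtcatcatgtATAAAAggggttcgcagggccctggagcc
Ppbp (chr5:90768398-90768517): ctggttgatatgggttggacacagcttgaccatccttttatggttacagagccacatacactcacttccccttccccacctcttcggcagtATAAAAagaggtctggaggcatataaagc
Pf4 (chr5:90772315-90772434): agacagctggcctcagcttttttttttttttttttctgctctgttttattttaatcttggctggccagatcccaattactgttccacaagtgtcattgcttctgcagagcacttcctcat

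The kappaB sequence begins 67 bases before the start in Cxcl1, 69 in Cxcl2 and 73 in Cxcl3. Searched on both strands in the 250 bases before the start, GGGAATTTCC is present in 0.0852% of 32851 promoters of the table. The looser GGGNNTTTCC, which includes it, is in 1.41% and occurs a second time in Cxcl1 and in Cxcl2. Neither form was found in the windows of Ppbp and Pf4. ATAAAA, held by 17.0% of all promoters on either strand, begins 30 bases before the start in Cxcl1 and 29 bases before it in Cxcl2, Cxcl3 and Ppbp, all on the plus strand. It is also on the minus strand in Ppbp and Pf4, so that all 5 windows hold it. The AP-1 sequence TGANTCA was found in Ppbp alone among the 5 (6.75% of all promoters), and the ETS-type sequence GGAAGT in Ppbp and Pf4 (19.7%). Aligned over the printed stretches, Cxcl1, Cxcl2 and Cxcl3 were 59.7% to 64.8% identical to each other, and Pf4 was 43.9% to 45.4% identical to the other members shown. The motifs were chosen after the sequences had been read, and a match is a description of letters.

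Cxcl1, Cxcl2 and Cxcl3 carry AU-rich sequence at the 3′ end of their mRNA, the kind of element that tristetraprolin-family proteins bind to speed decay. The 30 bases richest in the pentamer ATTTA are shown for them from GENCODE M21, with the pentamers in capitals.
Cxcl1 (chr5:90892602-90892631, plus strand): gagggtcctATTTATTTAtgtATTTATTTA
Cxcl2 (chr5:90905327-90905356, plus strand): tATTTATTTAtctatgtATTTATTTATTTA
Cxcl3 (chr5:90787629-90787658, plus strand): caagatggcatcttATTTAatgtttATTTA
Over the whole 3′ untranslated region, overlapping pentamers counted 7 in Cxcl1, 11 in Cxcl2 and 5 in Cxcl3. At least as many were found in 10.1%, 3.61% and 17.5% of the genes compared. Per kilobase this was 11.82, 14.99 and 7.75, densities that 0.825%, 0.422% and 2.4% of 11148 tested coding genes reached. Cxcl5 had 5 pentamers (4.5 per kb), Cxcl16 had 2 (1.41 per kb), Ppbp had 1 (1.52 per kb) and Pf4 had 1 in a short region of 123 bases. The density in Pf4, 8.13 per kb, was above that of Cxcl3 and was reached by 2.08% of the genes. Among the first annotated transcripts of the members, the longest exact run shared by any pair was 110 bases, between Cxcl2 and Cxcl3. This is shorter than the 150-nucleotide reads, and all other pairs shared 23 bases or fewer. The counter is not given, and whether the reads of the members were counted fully apart was not tested.

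Depth was 41125059 to 47461702 counts per library. Most of 10 listed macrophage markers were high in every library (Adgre1, the F4/80 antigen gene, 1330 to 1673 CPM, counts per 1000000 of the library total). Mertk and Mrc1 were lower, at 73.7 to 103 CPM and 87.4 to 153 CPM, and Cd163 stayed at or under 1.36 CPM. Mrc1 was called higher with kinsenoside (log2 fold change 0.66, adjusted p = 0.0316 in the edgeR test below). Summed levels of acinar cell markers stayed between 5.35 and 8.01 CPM and those of fibroblast markers between 0.778 and 1.71 CPM. Kinsenoside replicate 1 stood apart from the other 5 libraries on the second principal component of log2 CPM (23.6% of the variance), where it lay at 39.3 and the others between -19.7 and 6.13. The members' estimates are given with and without it.

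The neutrophil-attracting and platelet chemokine genes of chromosome 5 all had estimates above 0 with kinsenoside, and none of the 7 members passed the test. In edgeR's quasi-likelihood test over 13901 genes with Benjamini-Hochberg adjustment, 71 genes (0.511%) were called, and 0 of the 7 were among them. Of the tested genes, 0.209% were called higher and 0.302% lower (29 and 42 genes, or 25 and 63 with scaling by total counts alone). At an unadjusted p under 0.05 there were 2 members, Cxcl5 and Pf4, against 14.9% of all tested genes, or 6.74% counting higher genes alone. DESeq2, which called 3.8% of the genes it tested (1.64% higher), and limma-voom also called 0 of the 7. Estimates were above 0 for 7 of the 7, with that of Cxcl16 at 0.0031, and for 48.9% of all tested genes; the sign for Cxcl16 changed with the scaling. The median log2 fold change was 0.67 over the members and -0.0056 over all tested genes. Over the members it was 0.33 without kinsenoside replicate 1 and 1.03 without PAC-CM replicate 2. Pf4 was the only member whose libraries did not overlap between the groups, where 22.5% of all tested genes did not overlap (6.86% higher, 15.7% lower).

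**Figure D1:**
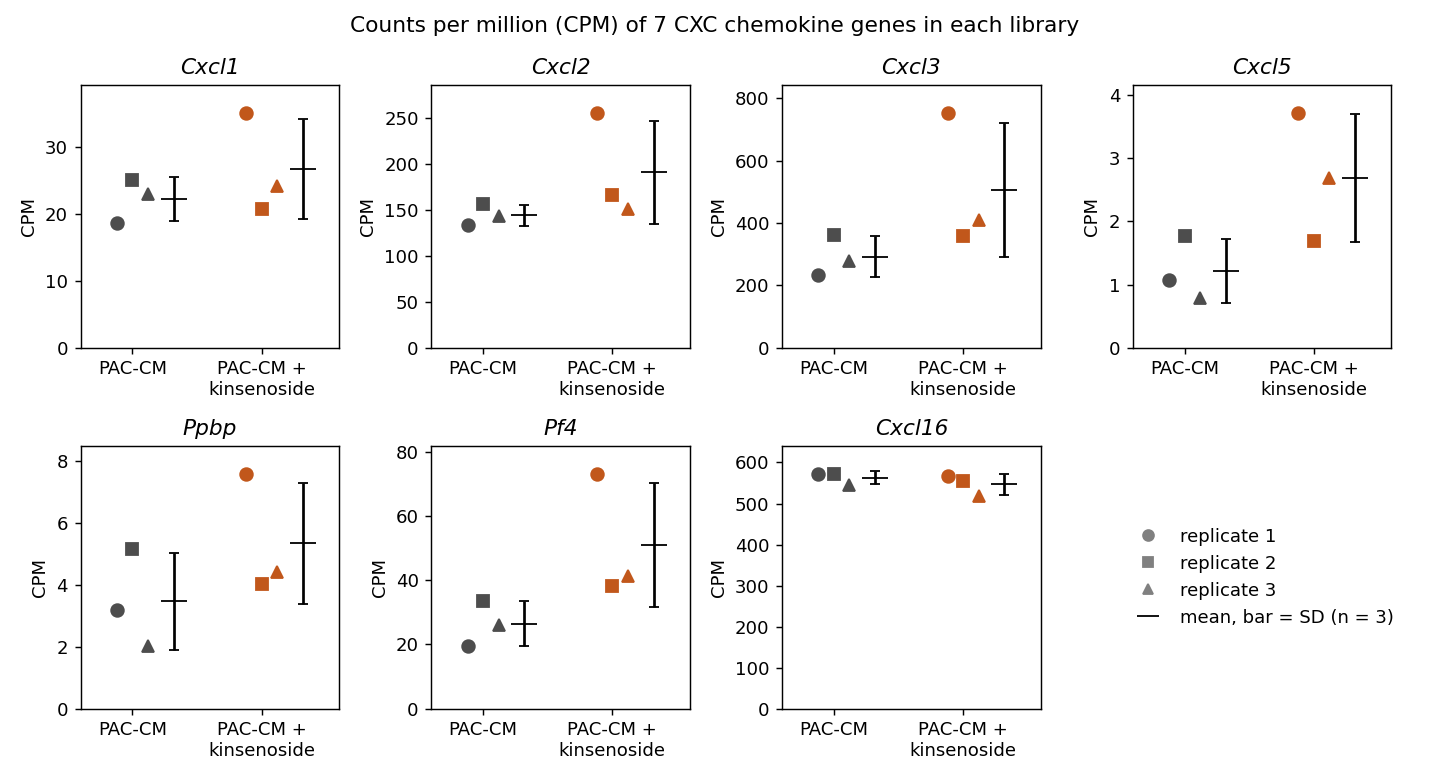
Level (CPM, linear axis from 0) of each of the 7 genes in the 3 PAC-CM libraries (grey) and the 3 kinsenoside libraries (orange); symbols give the replicate, and the black mark and bar give the mean and SD. Kinsenoside replicate 1 is the highest library for the 6 chromosome 5 genes, while Cxcl16 lies between 519 and 572 CPM in all libraries.

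Cxcl3, a CXCR2 ligand close in sequence to Cxcl2, was the most abundant of the chromosome 5 genes. It had 232, 363 and 280 CPM in PAC-CM replicates 1 to 3 and 752, 358 and 409 CPM in kinsenoside replicates 1 to 3. Kinsenoside replicate 1 was 2.08 times the highest PAC-CM library, and the other kinsenoside libraries lay around that library, so the groups overlapped. The mean was 291 ± 65.9 CPM against 506 ± 215 CPM (SD, n = 3 each), a log2 fold change of 0.84 (SE 0.349, 95% interval -0.054 to 1.73, edgeR adjusted p = 0.359). Without kinsenoside replicate 1 the log2 fold change was 0.44 (95% interval -0.10 to 0.98, adjusted p = 0.377).

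Cxcl2, known as MIP-2 and a main neutrophil attractant of mouse macrophages, had 133, 156 and 143 CPM in the PAC-CM libraries. It had 255, 167 and 151 CPM in the kinsenoside libraries, of which replicates 1 and 2 lay above all PAC-CM libraries and replicate 3 did not. The means were 144 ± 11.5 and 191 ± 56.2 CPM, with a log2 fold change of 0.45 (SE 0.204, 95% interval -0.046 to 0.95, edgeR adjusted p = 0.375). Without kinsenoside replicate 1 it was 0.18 (95% interval -0.014 to 0.38, adjusted p = 0.335).

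Cxcl1, the mouse chemokine called KC, had the lowest estimate of the cluster. Its values were 18.7, 25.1 and 23.0 CPM in PAC-CM, against 35.1, 20.8 and 24.2 CPM under kinsenoside. Only kinsenoside replicate 1 lay above the PAC-CM range, and replicates 2 and 3 lay within it. The log2 fold change was 0.31 (SE 0.212, 95% interval -0.20 to 0.81, edgeR adjusted p = 0.563), and 0.060 without kinsenoside replicate 1 (95% interval -0.26 to 0.38, adjusted p = 0.869). The mean of kinsenoside replicates 2 and 3, 22.5 CPM, was 1.01 times the PAC-CM mean.

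Cxcl5, known in mouse as LIX and made mainly by epithelial and stromal cells, was the least abundant member in these macrophages, above the floor of 3 counts in every library. It had 46, 84 and 35 counts in PAC-CM and 161, 71 and 110 counts with kinsenoside, or 1.07, 1.77 and 0.793 CPM against 3.71, 1.68 and 2.67 CPM. Kinsenoside replicates 1 and 3 lay above all PAC-CM libraries, and replicate 2 lay just under PAC-CM replicate 2. Its log2 fold change of 1.19 was the largest of the members (SE 0.372, 95% interval 0.33 to 2.05, edgeR unadjusted p = 0.0126, adjusted p = 0.203). The estimate was 0.89 without kinsenoside replicate 1 (95% interval 0.025 to 1.75, adjusted p = 0.295). DESeq2 gave an adjusted p of 0.0625, the lowest over 15 alternatives, which reached 0.469.

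Pf4, the gene of platelet factor 4, had 19.6, 33.5 and 26.1 CPM in PAC-CM, against 73.1, 38.3 and 41.1 CPM under kinsenoside. Every kinsenoside library lay above every PAC-CM library, and replicate 1 was 2.18 times the highest of these. The means were 26.4 ± 6.99 and 50.8 ± 19.3 CPM, a log2 fold change of 0.99 (SE 0.334, 95% interval 0.14 to 1.83, edgeR unadjusted p = 0.0295, adjusted p = 0.278). Without kinsenoside replicate 1 it was 0.63 (95% interval 0.036 to 1.23, adjusted p = 0.286).

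Ppbp, the gene of the CXCL7 precursor, was far below Pf4, with 138, 245 and 90 counts in PAC-CM and 330, 170 and 182 counts with kinsenoside. In CPM these were 3.21, 5.16 and 2.04 against 7.60, 4.03 and 4.43. PAC-CM replicate 2 lay above kinsenoside replicates 2 and 3, so the groups overlapped. The log2 fold change was 0.67 (SE 0.394, 95% interval -0.28 to 1.61, edgeR adjusted p = 0.493) and 0.33 without kinsenoside replicate 1 (95% interval -0.57 to 1.22, adjusted p = 0.72). Leaving out PAC-CM replicate 2 instead gave 1.08, and leaving out PAC-CM replicate 3 gave 0.40.

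Cxcl16, the membrane-bound ligand of CXCR6, had nearly the same level in all libraries. It had 572, 571 and 545 CPM in PAC-CM, against 567, 554 and 519 CPM under kinsenoside, with SDs of 2.79% and 4.61% of the group mean. The log2 fold change was 0.0031 (SE 0.0605, edgeR adjusted p = 0.99), and its 95% interval of -0.14 to 0.14 corresponds to 0.911-fold to 1.10-fold. The sign of the estimate changed between scalings, from -0.041 with total counts alone to 0.011 with RLE, which leaves the direction undetermined.

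**Figure D2:**
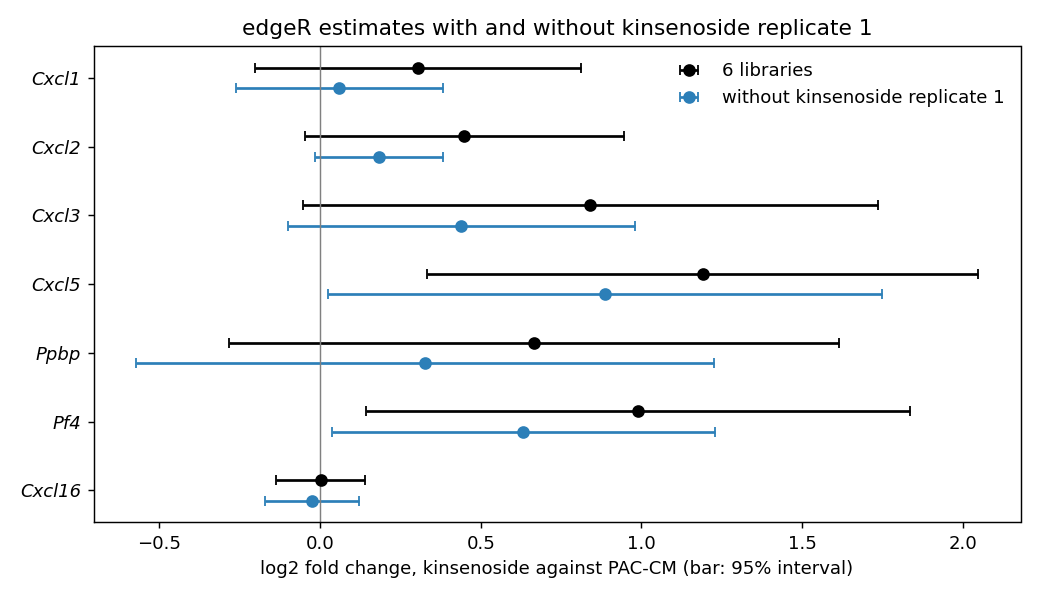
Log2 fold change of each gene, kinsenoside against PAC-CM, from edgeR with all 6 libraries (black) and without kinsenoside replicate 1 (blue); bars are 95% intervals. The intervals of Cxcl5 and Pf4 lie above 0 in both fits without adjustment for the number of genes, those of Cxcl1, Cxcl2, Cxcl3 and Ppbp include 0, and Cxcl16 has the narrowest interval of the 6-library fit.

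The 6 genes of the cluster shared the highest library of each group, and differed in the order of the other libraries. Relative to each gene's mean log2 CPM over the 6 libraries, kinsenoside replicate 1 lay between 0.57 (Cxcl1) and 1.11 (Cxcl5) for the cluster genes and at 0.055 for Cxcl16. It was the highest of the 6 libraries for all 6 cluster genes, as it was for 14.4% of all tested genes. PAC-CM replicate 2 was the highest PAC-CM library for each of the 6, and 6.47% of all tested genes showed both features. PAC-CM replicate 1 was the lowest library for Cxcl1, Cxcl2, Cxcl3 and Pf4, and PAC-CM replicate 3 was the lowest for Cxcl5 and Ppbp. In kinsenoside replicate 2 the deviations ran from -0.19 (Cxcl1) to 0.13 (Pf4), and in PAC-CM replicate 2 from -0.10 (Pf4) to 0.32 (Ppbp). The deviations of these libraries from opposite groups thus covered overlapping ranges.

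**Figure D3:**
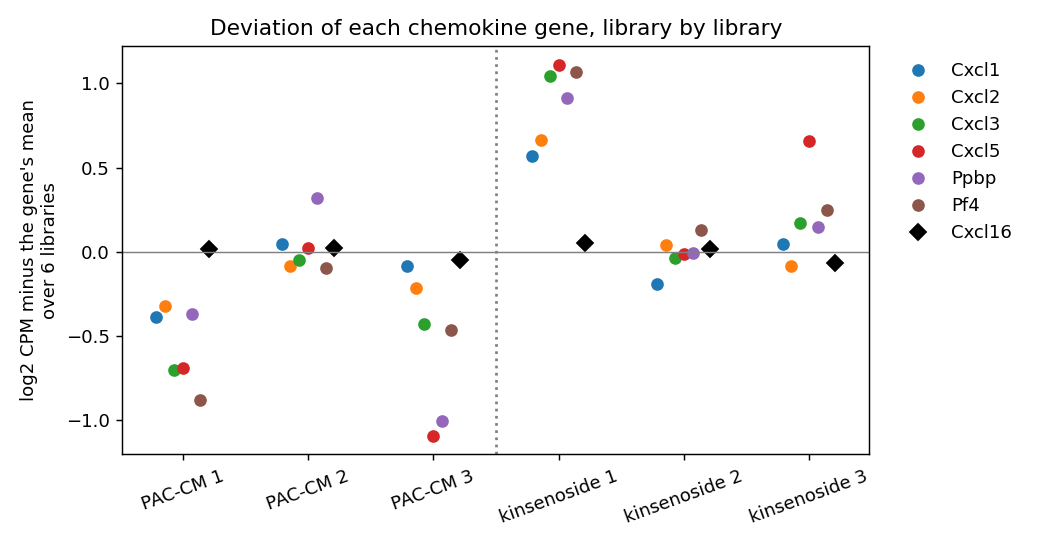
Log2 CPM of each gene minus its mean over the 6 libraries, for PAC-CM replicates 1 to 3 (left of the dotted line) and kinsenoside replicates 1 to 3 (right). The 6 chromosome 5 genes (circles) stand between 0.57 and 1.11 in kinsenoside replicate 1, and Cxcl16 (diamonds) stays within 0.07 of 0 in every library.

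The summed level of the 6 cluster genes was 408, 584 and 475 CPM in PAC-CM replicates 1 to 3. With kinsenoside it was 1127, 589 and 633 CPM. The kinsenoside sums were thus all above the PAC-CM sums, narrowly so for kinsenoside replicate 2 against PAC-CM replicate 2. Cxcl3 supplied 56.9% to 66.7% of the counts of the 6 genes in a library, so the sum largely follows that gene.

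Levels between genes were compared as CPM per kilobase of the first annotated coding transcript of each gene. In PAC-CM the order was Cxcl3 (287 ± 64.9 CPM per kb), Cxcl16 (208 ± 5.81), Cxcl2 (130 ± 10.4), Pf4 (44.9 ± 11.9), Cxcl1 (23.4 ± 3.40), Ppbp (3.20 ± 1.46) and Cxcl5 (0.769 ± 0.320; SD, n = 3). Neighbours in this order did not overlap in PAC-CM. With kinsenoside, Cxcl2 (136 to 230 CPM per kb) overlapped Cxcl16 (192 to 210 CPM per kb), and the other neighbours kept apart. The order depended on the length used. Merged exons of Cxcl1, Cxcl2 and Cxcl3 cover the whole gene. By that length Cxcl3 and Cxcl16 changed places in PAC-CM. Cxcl3 (66.4 to 104 CPM per kb) then overlapped Cxcl2 (64.5 to 75.6) there, though it was the higher within each library. Pf4 was thus above Cxcl1 in every library.

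Genes specific to platelets were measured because Pf4 and Ppbp are named for them. Each of 12 platelet and megakaryocyte markers had counts in both groups. Their summed level was 52.8 to 66.4 CPM in PAC-CM, against 47.5 to 73.5 CPM under kinsenoside, and Vwf, which endothelial cells also express, made up most of it. Without Vwf the sum was 10.4 to 16.1 CPM in PAC-CM, against 11.6 to 15.3 CPM under kinsenoside. Itga2b and Gp6 were the next highest after Vwf, at 2.58 to 5.84 CPM and 2.99 to 4.93 CPM over all libraries, where Ppbp had 2.04 to 7.60 CPM. Other markers were lower. Gp9, a platelet adhesion receptor subunit, reached at most 0.363 CPM, where 3 counts correspond to 0.0632 to 0.0729 CPM, and Tubb1, the platelet tubulin, reached 0.441 CPM. The platelet sums overlapped between the groups. Of the 12 markers, 2 did not overlap and were higher with kinsenoside, where 22.5% of all tested genes did not overlap and 6.86% did so on the higher side. They were Selp, the P-selectin gene, with 0.859 to 0.952 CPM against 1.18 to 1.65 CPM (edgeR adjusted p = 0.188), and Clec1b, the CLEC-2 receptor gene, with 0.302 to 0.521 CPM against 0.599 to 0.802 CPM. The part of platelet or megakaryocyte RNA in the Pf4 and Ppbp values was not tested. In bulk RNA, a change in the number of cells of a type and a change in RNA per cell cannot be told apart.

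Of the 12 neutrophil markers, Elane and Retnlg were at 0 counts in all libraries, and Ly6g, Mpo and Cxcr2 stayed at or under 0.113 CPM. The summed level was 361 to 376 CPM in PAC-CM, against 383 to 426 CPM under kinsenoside, of which Csf3r, Mmp8 and S100a8, genes that macrophages also express, made up nearly all. These sums did not overlap between the groups, and Mmp8 alone had 29.2 to 43.8 CPM in PAC-CM and 79.4 to 126 CPM with kinsenoside. Csf3r, the largest part of the sum, went the other way, with 292 to 295 CPM in PAC-CM and 255 to 270 CPM with kinsenoside. Mmp8 and Csf3r were each without overlap, as were 22.5% of all tested genes, while S100a8 overlapped. The markers of mast cells and basophils summed to 0.521 to 2.58 CPM and those of dendritic cells to 5.86 to 8.93 CPM, with overlapping groups. The part of other cells in the chemokine values was not tested beyond these levels.

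Within a library, the balance of the cluster genes can be read without any scaling, as a ratio of counts. Cxcl1 was 0.081, 0.069 and 0.082 of Cxcl3 in the PAC-CM libraries and 0.047, 0.058 and 0.059 of it with kinsenoside, so Cxcl3 was the higher relative to Cxcl1 in each kinsenoside library. Cxcl1 relative to Pf4 went from 0.957, 0.748 and 0.881 to 0.480, 0.543 and 0.590, and Cxcl2 relative to Pf4 from 6.82, 4.67 and 5.49 to 3.50, 4.35 and 3.68. Cxcl5 relative to Ppbp went from 0.333, 0.343 and 0.389 to 0.488, 0.418 and 0.604. Of the 15 pairs among the 6 genes, 6 had ratios that did not overlap between the groups, and 20.1% of all pairs of tested genes did so. With 3 libraries against 3 an exact two-sided permutation test cannot go below 0.10, so no ratio could pass, and the pairs share genes and libraries.

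Nearness of pattern was measured as the root mean square difference of centred log2 CPM over the 6 libraries, among tested genes whose mean level reached 5 CPM. Genes without a symbol or with a clone or model name (Gm or Rik) were left out of the candidates. The gene most like Pf4 was Cxcl3, and the gene most like Cxcl3 was Pf4, at 0.107 in both cases; they are neighbours in the cluster, 12.7 kb apart. Next to Pf4 came Ccl12, a monocyte-attracting chemokine gene (0.166), and Arg1, the arginase 1 gene (0.205). Next to Cxcl3 came the carbonyl reductase gene Cbr2 (0.167) and Trem1, an amplifying receptor of myeloid inflammation (0.171). Cxcl1 and Cxcl2, which are 10.8 kb apart, differed by 0.140. Nearness in the cluster did not always go with likeness. Ppbp and Pf4, the closest members at 2.4 kb, differed by 0.361, and Cxcl5 and Ppbp, 6.9 kb apart, by 0.287.

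The genes nearest to Cxcl2 were Dmwd (0.073), Ccl2, the monocyte chemoattractant gene (0.077), and Cish, a feedback inhibitor of cytokine signalling (0.078). Those nearest to Cxcl1 were Trib1, a pseudokinase gene (0.071), Dmwd (0.087) and Ss18 (0.094). Cxcl5 was nearest to Pf4 (0.326), Ccl12 (0.337) and Cxcl3 (0.338), and Ppbp was nearest to Mmp27 (0.237), Hbegf (0.243) and Zfp703 (0.286). Cxcl5 and Ppbp, each with a mean under 5 CPM and so not candidates themselves, differed from each other by 0.287, less than Cxcl5 from any candidate. Cxcl16 varied so little that Pacs2, Mrfap1 and Ube2z lay within 0.015 to 0.017 of it. With 6 libraries and 13901 tested genes, nearness is given as a description.

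**Figure D4:**
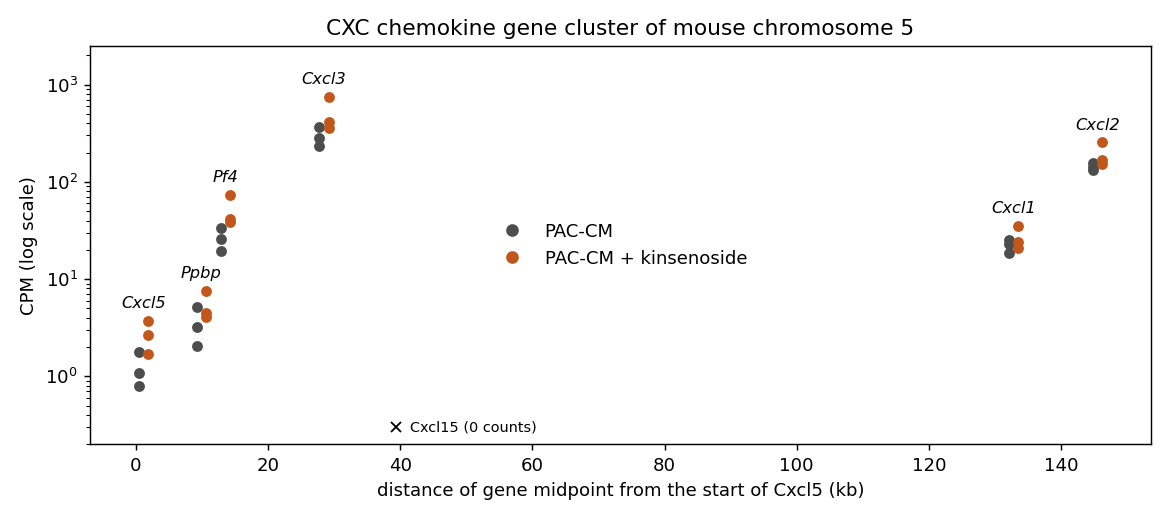
CPM on a log scale of the chromosome 5 chemokine genes, placed by the distance of the gene's midpoint from the start of Cxcl5 in kilobases; PAC-CM (grey) and kinsenoside (orange) libraries are set 0.7 kb to the left and right of the midpoint. Cxcl3 and Cxcl2 are the most abundant, Cxcl5 and Ppbp the least, and Cxcl15 had 0 counts in all libraries.

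Not all genes of the region were expressed. Cxcl15, a lung chemokine gene between Cxcl3 and Cxcl1, had 0 counts in all 6 libraries, which allows up to 0.0632 to 0.0729 CPM. Outside the chemokine genes, 2 genes within 350 kb of the cluster were expressed highly enough to be tested: Afp, with 128 to 217 counts (log2 fold change 0.27, edgeR adjusted p = 0.542), and Mthfd2l, a mitochondrial folate enzyme gene, with 115 to 169 counts (0.081, adjusted p = 0.892). Both overlapped between the groups.

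Among the other CXC chemokine genes of the macrophages, Cxcl10 was lower. Of 8 listed, 4 were tested, 1 fell, 0 rose and 3 did not pass, with a median log2 fold change of -0.47. Cxcl10, an interferon-induced ligand of CXCR3, fell to 285 ± 24.5 CPM with kinsenoside, against 557 ± 48.2 CPM in PAC-CM (log2 fold change -0.92, edgeR adjusted p = 0.00482), and it passed under each of 15 alternatives (adjusted p up to 0.0337). Cxcl10 was thus lower in kinsenoside libraries while the cluster genes had estimates above 0, a difference between genes that was not itself tested. Cxcl12 stayed at or under 5 counts, and Cxcl13, Cxcl15 and Cxcl17 were at 0 counts in all libraries.

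The receptors of the members were scarce in these cells. Cxcr2, the receptor of the neutrophil attractants, had 0 to 5 counts per library, Cxcr1 had 3 to 9, and Ackr1, a decoy receptor, had 0. Cxcr6, the receptor of Cxcl16, had 11 to 37 counts (log2 fold change 0.76, edgeR adjusted p = 0.42). Cxcr3 was included because platelet factor 4 can bind a form of the human receptor, and it fell to 2.73 ± 0.889 CPM, against 8.80 ± 1.32 CPM in PAC-CM (log2 fold change -1.64, adjusted p = 0.0316). This call was lost without any single library other than kinsenoside replicate 1 (adjusted p 0.0701 to 0.138) and with non-robust estimates (0.0511). Of the 5 listed receptors 2 were tested, with 1 lower and 0 higher.

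Of the genes that act on the chemokine proteins after synthesis, none passed edgeR's test, and Mmp8 passed in DESeq2. For the release of Cxcl16, 5 of 5 listed genes were tested and 0 were called in edgeR (median log2 fold change -0.03). The sheddase gene Adam17 had 249 ± 26.8 CPM in PAC-CM, against 199 ± 49.6 CPM under kinsenoside (adjusted p = 0.575), and Rhbdf2, which encodes the ADAM17 partner iRhom2, had 133 ± 10.5 and 129 ± 18.0 CPM (adjusted p = 0.995). Of 11 proteases that trim CXC chemokines 7 were tested and 0 were called in edgeR (median -0.041). The largest estimate of this list was that of Mmp8, the neutrophil collagenase gene, at 36.4 ± 7.28 CPM in PAC-CM and 98.0 ± 24.6 with kinsenoside (log2 fold change 1.47, edgeR adjusted p = 0.0716, DESeq2 adjusted p = 1.7e-12), named after its values were seen. Ctsl, the cathepsin L gene, had 2895 ± 241 and 3102 ± 382 CPM (adjusted p = 0.559), and Mmp12, the macrophage elastase gene, 2259 ± 471 and 2128 ± 75.2 CPM (adjusted p = 0.925).

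The machinery that induces these chemokines was represented by 27 genes, of which 26 were tested, 2 were lower, 0 were higher and 24 did not pass (median 0.002). Nfkbia, the NF-kB inhibitor gene, fell to 230 ± 18.4 CPM, against 351 ± 13.7 CPM in PAC-CM (log2 fold change -0.56, edgeR adjusted p = 0.0263). Nfkbiz, whose product is a nuclear cofactor of NF-kB, fell to 40.9 ± 3.48 CPM, against 59.0 ± 1.95 CPM in PAC-CM (log2 fold change -0.48, adjusted p = 0.0419). Both calls were lost without any single library other than kinsenoside replicate 1, with adjusted p from 0.0616 to 0.12 for Nfkbia and from 0.0811 to 0.17 for Nfkbiz. That of Nfkbiz was also lost with the replicate block (0.0769) and non-robust estimates (0.061). Both genes are known targets of NF-kB, as are Cxcl1, Cxcl2 and Cxcl3, whose estimates were above 0 and did not pass. NF-kB activity was not tested.

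For the regulation of chemokine mRNA stability, 12 of 12 genes were tested and 0 were called in edgeR (median -0.044). Mapkapk2, the p38 effector kinase that stabilizes AU-rich mRNAs, had 204 ± 17.8 CPM in PAC-CM, against 137 ± 13.8 CPM under kinsenoside (log2 fold change -0.53, adjusted p = 0.0601). Its kinsenoside libraries all lay below its PAC-CM libraries, as they did for 15.7% of all tested genes. Mapkapk2 passed under 5 of 15 alternatives, among them leaving out kinsenoside replicate 1 (adjusted p = 0.0468). Zfp36l2, of the tristetraprolin family, had 186 ± 16.8 and 186 ± 28.7 CPM (adjusted p = 0.901). These were the most abundant genes of the list.

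Of 16 other neutrophil attractants and growth factors 13 were tested, 2 were lower, 0 were higher and 11 did not pass (median 0.013). The lower genes were Il1a and Il1b, inducers of CXC chemokines in many cells, with log2 fold changes of -0.82 and -0.60 (edgeR adjusted p = 0.0403 and 0.0152). Both calls were lost without PAC-CM replicate 1, 2 or 3 or kinsenoside replicate 2, with adjusted p from 0.117 to 0.157 for Il1a and from 0.0627 to 0.0824 for Il1b, and that of Il1a with non-robust estimates (0.0542). Of 12 alpha granule partners of the platelet chemokines 11 were tested and 0 were called, with a median of 0.13. Srgn, the serglycin core protein gene whose chains hold platelet factor 4 in granules, had 1085 ± 24.0 CPM in PAC-CM, against 1199 ± 97.0 CPM under kinsenoside (adjusted p = 0.283). Thbs1, the thrombospondin 1 gene, had 1059 ± 222 and 1618 ± 297 CPM (adjusted p = 0.221). For both genes the kinsenoside libraries lay above the PAC-CM libraries, as they did for 6.86% of all tested genes. DESeq2 called Thbs1 (adjusted p = 0.00523).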

How the data were processed

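RNA-seq counts of 6 libraries were analysed, 3 per group. The authors deposited unnormalised read counts, as whole numbers, for each Ensembl gene in every library. STAR, StringTie 1.3.1c and DESeq2 1.16.1, with FastQC 0.11.2 and bcl2fastq 2.20, are listed for GRCm38 in the submitters' processing notes, without roles. Neither the counter nor its strand setting is given in the sources used here. All 7 members passed filterByExpr. The counts were tested in edgeR 4.0.16 (R 4.3.3; TMM, robust quasi-likelihood fit on group, 4 residual degrees of freedom, two-sided, Benjamini-Hochberg over 13901 genes, threshold 0.05). SE is the log2 fold change over the square root of F; intervals use the moderated t distribution. CPM is a count per 1000000 of the library total; centred log2 CPM used TMM and a prior count of 2. Intervals and the floor of 3 counts per library do not cover more than counting error and library spread. Alternatives were DESeq2 1.42.0, limma-voom (limma 3.58.1), other scalings and filters, the replicate block, non-robust estimates and leaving out each library. On simulated counts of this comparison for 13901 genes, calls recovered 24 of 67 genes at a true fold of 1.5, 51 of 67 at 2 and 61 of 66 at 4, and 20 of 156 calls were unchanged genes. The changed genes were drawn at random from all tested genes, which differ in spread. Recovery was not assessed for the members themselves. Members, lists and naming rule (called genes of a list, up to 4, otherwise its 2 most abundant; 3 nearest genes per member) were chosen with earlier results of these data known. Annotation was GENCODE M21, with 55154 identifiers matched; promoter sequences are from RefSeq (GRCm38.p6).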

Additional observations from a re-analysis of the deposited data

How the results depend on the processing

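None of the 7 chemokine genes was called under any of 15 alternatives. The estimates of the 6 chromosome 5 genes stayed above 0 in all of them: 0.060 to 0.46 for Cxcl1, 0.18 to 0.59 for Cxcl2, 0.44 to 1.04 for Cxcl3, 0.89 to 1.58 for Cxcl5, 0.33 to 1.08 for Ppbp and 0.63 to 1.20 for Pf4. The lowest of each came without kinsenoside replicate 1. Cxcl16 changed sign with upper quartile scaling (-0.015), total counts alone (-0.041) and no filter (-0.0015), and without PAC-CM replicate 3 (-0.016), kinsenoside replicate 1 (-0.024) or kinsenoside replicate 2 (-0.0024), with a range of -0.024 to 0.036 over left-out libraries. Other near-zero estimates also changed sign: Rhbdf2 with limma-voom (-0.0025), upper quartile scaling (-0.014), total counts (-0.041), no filter (-0.0017) and the replicate block (-0.0026), and without PAC-CM replicate 3 or kinsenoside replicate 1 (-0.11 to 0.089 over left-out libraries), Mmp12 (-0.12 to 0.14), Zfp36l2 (-0.085 to 0.13) and Mthfd2l (-0.040 to 0.21) when a library was left out. The number of called genes was 71 and moved to 441 with DESeq2 and 36 with non-robust estimates, and ranged from 13 (without PAC-CM replicate 1) to 98 (without kinsenoside replicate 1) over left-out libraries; the cause was not tested. With the replicate block 42 genes were called, and the estimates for Cxcl3 and Pf4 were 0.78 and 0.95. The labels do not tie same-numbered libraries to each other. Deviations of same-numbered libraries correlated at 0.009, -0.101 and 0.135, and 2 of 6 libraries correlated best with their own number. Differently numbered libraries of opposite groups ranged from -0.173 to 0.164. These correlations cannot show whether same-numbered libraries shared a culture or batch. Cxcl5 and Ppbp, with 35 to 330 counts, had the largest SEs of the members (0.372 and 0.394). The SE of Cxcl3 was close to these, at 0.349, with 10000 to 32683 counts.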

Other observations

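Some further genes around neutrophil recruitment, chosen after their values were seen, had large estimates without passing the edgeR test. Mmp8, the neutrophil collagenase gene, whose product trims mouse CXCL5, had 29.2, 43.8 and 36.3 CPM in PAC-CM, against 126, 79.4 and 88.6 CPM under kinsenoside. All kinsenoside libraries lay above all PAC-CM libraries, as they did for 6.86% of all tested genes (log2 fold change 1.47, adjusted p = 0.0716). Mmp8 passed in DESeq2 (adjusted p = 1.7e-12), with non-robust estimates (0.0494) and without kinsenoside replicate 1 (0.0486). Csf3, the granulocyte colony-stimulating factor gene, had 398, 499 and 394 counts in PAC-CM and 1286, 594 and 375 counts with kinsenoside (log2 fold change 0.92, adjusted p = 0.418), with kinsenoside replicate 1 the highest; without it the estimate was 0.32 (adjusted p = 0.426). Tnf, an inducer of these chemokines, had 128 ± 18.0 CPM in PAC-CM, against 78.0 ± 18.7 CPM under kinsenoside (log2 fold change -0.67, adjusted p = 0.203). Its groups did not overlap, as for 15.7% of all tested genes on the lower side. Tnf passed in DESeq2 (adjusted p = 0.00419). Tlr4, the lipopolysaccharide receptor gene, had 756, 837 and 1025 counts in PAC-CM and 4663, 873 and 4701 counts with kinsenoside, with replicate 2 in the PAC-CM range (log2 fold change 2.10, adjusted p = 0.297). Tlr4 passed in 1 of 15 alternatives, that without kinsenoside replicate 2 (estimate 2.56, adjusted p = 0.00149), and the adjusted p reached 0.549 in the others.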
